A study of Mus musculus with 12 samples.

Results

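The genes described here are Fbxl19, its F-box relatives Kdm2a and Kdm2b, and Skp1a, Cul1 and Rbx1, 6 in all, of which the last 3 encode the core of the ubiquitin ligase that F-box proteins join. They were chosen by symbol, because the series concerns Fbxl19 as a target of the microRNA miR-26. All 6 were listed in both expression tables, with 19262 genes in the table of TKO and WT cells and 16785 in that of Dox and CTL cells. All 6 also passed the filter on low values, among 12649 and 12634 genes tested.

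Messenger RNA was sequenced from primary mouse cells, the stromal vascular fraction of white fat, kept in culture. That fraction contains the progenitors of fat cells, and the aim given for the series was to identify miR-26 targets in their differentiation. The 12 libraries formed 4 groups of 3. TKO cells were without miR-26b and both miR-26a genes (miR-26a-1-/-, miR-26a-2-/-), and WT cells were wild type. Dox cells carried M2rtTA and eGFP.miR-26a and were kept in doxycycline, given in the labels as 1 mg/ml, for 4 days. CTL cells carried the same transgenes and received no doxycycline. All mice were C57BL/6 and 6 weeks old, and all cultures were grown to confluency. No group received doxycycline without the transgenes, so effects of the drug and of miR-26a cannot be told apart. The labels do not say whether replicates came from separate animals or cultures, and p-values therefore measure only the spread between these samples. Neither miR-26 nor eGFP was measured in the files used, so loss and induction of the microRNA were not checked directly.

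An SCF ligase is built on the cullin Cul1, which binds the RING protein Rbx1 at one end and the adaptor Skp1 at the other. Rbx1 recruits the ubiquitin-conjugating enzyme, while an F-box protein docks on Skp1 and selects the substrate. Fbxl19, Kdm2a and Kdm2b combine an F-box and leucine-rich repeats with a CXXC zinc finger, which binds DNA with unmethylated CpG. Kdm2a and Kdm2b also carry a JmjC domain that removes methyl groups from lysine 36 of histone H3, and Kdm2b brings a variant Polycomb complex to CpG islands. Fbxl19 lacks the JmjC domain, and in mouse embryonic stem cells it has been linked to the ubiquitin ligase Rnf20 and to the CDK8 module of Mediator.

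MicroRNAs of the miR-26 family pair through their seed with the 3′ untranslated region (UTR) of messenger RNAs and generally lower their abundance or translation. The mature sequences are shown because both share the seed that is searched for below. They are from RefSeq (GRCm38.p6), 5′ to 3′, with the seed, bases 2 to 8, in capitals.
mmu-miR-26a-5p: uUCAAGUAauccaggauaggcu
mmu-miR-26b-5p: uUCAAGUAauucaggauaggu

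The longest class of match, the 8mer TACTTGAA, pairs with the whole seed and adds an A. It was found at 2 places in the 1546-base 3′ UTR of Fbxl19, both in exon 11 of 11, the last exon, and in none of the other 5 UTRs. Each window below has 30 bases of the gene strand (GENCODE vM21, GRCm38), with the match in capitals. The first lies at chr7:127768710-127768717 and the second at chr7:127768739-127768746, on the plus strand. Their starts are 29 bases apart, at UTR positions 780 and 809, with 21 bases between them.
Fbxl19 first match: tgcctggctctctacacaaTACTTGAAcat
Fbxl19 second match: ttcatctgtactgaagtgtTACTTGAAccg

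Fbxl19 had 2 further matches of the weaker 6mer class, ACTTGA. Kdm2b had a single 6mer at chr5:122870921-122870926 on the minus strand. It is shown because it was the only match of any class in the chosen 3′ UTRs of the other 5 genes. The chosen UTRs of Kdm2a, Skp1a, Cul1 and Rbx1 had none, although that of Kdm2a spans 4681 bases.
Kdm2b match: tagacttcacctctccctcagACTTGAgcc

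These matches refer to 1 transcript per gene. Of the 7 annotated Fbxl19 transcripts, 4 held both 8mers, 1 held a single 8mer and 2 had no annotated 3′ UTR. Of 14 Kdm2a transcripts 2 held a 6mer, both annotated as targets of nonsense-mediated decay, and 4 of 20 Kdm2b transcripts did. No annotated 3′ UTR of Skp1a, Cul1 or Rbx1 held a match of any class. Only 3′ UTRs were searched, and 2 of 6 Skp1a, 7 of 9 Cul1 and 3 of 6 Rbx1 transcripts have none annotated. A match describes the sequence and is not evidence of pairing.

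The TKO libraries held between 71455171 and 83461531 reads on listed genes and the WT libraries between 54978109 and 61307152. The Dox libraries held between 19301969 and 25785439 and the CTL libraries between 20182665 and 24122542. Values are the authors' signal, read numbers adjusted for library size and for 1 further factor of each library. Fold changes are limma log2 differences of signal plus 1, which understate the change of low genes. A gene passed at an adjusted p under 0.05. With library-size scaling the median gene moved by 0.11 on the log2 scale in TKO against WT. The calls then split into 3824 higher and 1913 lower, against 2930 and 2866 with the deposited scaling. Of 14 progenitor marker names 13 were listed, and the remaining name, Cd29, is another name of Itgb1, which was listed. Their summed signal was between 26093 and 28797 in TKO and between 25516 and 27400 in WT libraries. It was between 32969 and 40133 in Dox and between 31693 and 39396 in CTL libraries. Such a sum follows its most abundant genes and does not show that each marker was alike between groups. Ly6a, for example, averaged only 228 in TKO and 121 in WT cells.

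In TKO against WT, 3 of the 6 genes passed: Fbxl19 and Rbx1 were higher and Kdm2a was lower. Of all genes tested 45.8% passed, so 3 of 6 is close to the background and is not a result about these genes as a group. In Dox against CTL none of the 6 passed, and of all genes 0% did. There edgeR also called 0 genes, DESeq2 called 99, and 748 had an unadjusted limma p under 0.05. In the authors' deposited table, where 24.8% of listed genes had a false discovery rate under 0.05 in TKO against WT, Kdm2a was at -0.78 (rate 1.89e-09) and Rbx1 at 0.76 (rate 7.85e-10). In the authors' deposited table of Dox against CTL, with 0.0596% of genes under 0.05, the rate was 1 for all 6. The authors' unadjusted p of Fbxl19 there, from a likelihood ratio test, was 0.02. At the smallest p the rate was 53947 times the p in TKO against WT and 53918 times in Dox against CTL. The rates were thus adjusted over more entries than the genes listed.

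Fbxl19 (ENSMUSG00000030811.14), the gene with both 8mers, lies at chr7:127744543-127769483 on the plus strand. Its signal was 30.01, 34.1 and 33.2 in the TKO libraries, against 16.9, 19.2 and 22.1 in the WT libraries. Every TKO library was above every WT library. The mean was 32.4 ± 2.13 in TKO and 19.4 ± 2.57 in WT (SD, n = 3 each), a log2 change of 0.72 with a standard error (SE) of 0.11 and a 95% interval of 0.46 to 0.98 (limma adjusted p 0.00253). On the linear scale this is 1.64-fold. The change was the 977th highest of 12649, above 92.3% of all genes. The signal rested on 2360 to 2992 reads per TKO library and 960 to 1215 per WT library. Counting error alone would give a coefficient of variation of 1.93% in TKO and 3.00% in WT, while the measured values were 6.58% and 13.2%.

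Under doxycycline the difference in Fbxl19 had the opposite sign. Its signal was 20.6, 22.2 and 19.6 in the Dox libraries, against 27.2, 26.4 and 27.02 in the CTL libraries. The groups did not overlap, with all Dox libraries lower, but the difference did not pass over all genes. The mean was 20.8 ± 1.30 in Dox and 26.9 ± 0.435 in CTL (SD, n = 3 each), a log2 difference of -0.36 (SE 0.09, 95% interval -0.56 to -0.15, limma adjusted p 0.57, unadjusted p 0.00469). The rank was low, with 4.35% of all genes below it. Counting error alone would give a coefficient of variation of 4.50% in Dox and 4.07% in CTL, while the measured values were 6.27% and 1.62%. The CTL libraries thus lay closer together than counting error alone would give, and their SD may understate the spread.

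Same-numbered Dox and CTL libraries deviated together, so a fit paired by number was also made, in which 2.1% of all genes passed. Fbxl19 did not pass there either (adjusted p 0.0792 in limma). After correction for transcript length and GC content, where 7.15% of all genes passed in the paired fit, it did (-0.39, adjusted p 0.0192 in limma), as it did when the second pair was left out (-0.42, adjusted p 0.00893). Without the first pair the adjusted p was 0.524, and without the third it was 0.105. The Fbxl19 result under doxycycline therefore changes call with 1 pair. The CTL mean of 26.9 and the WT mean of 19.4 come from tables that were scaled apart, and no test was made across them.

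**Figure D1:**
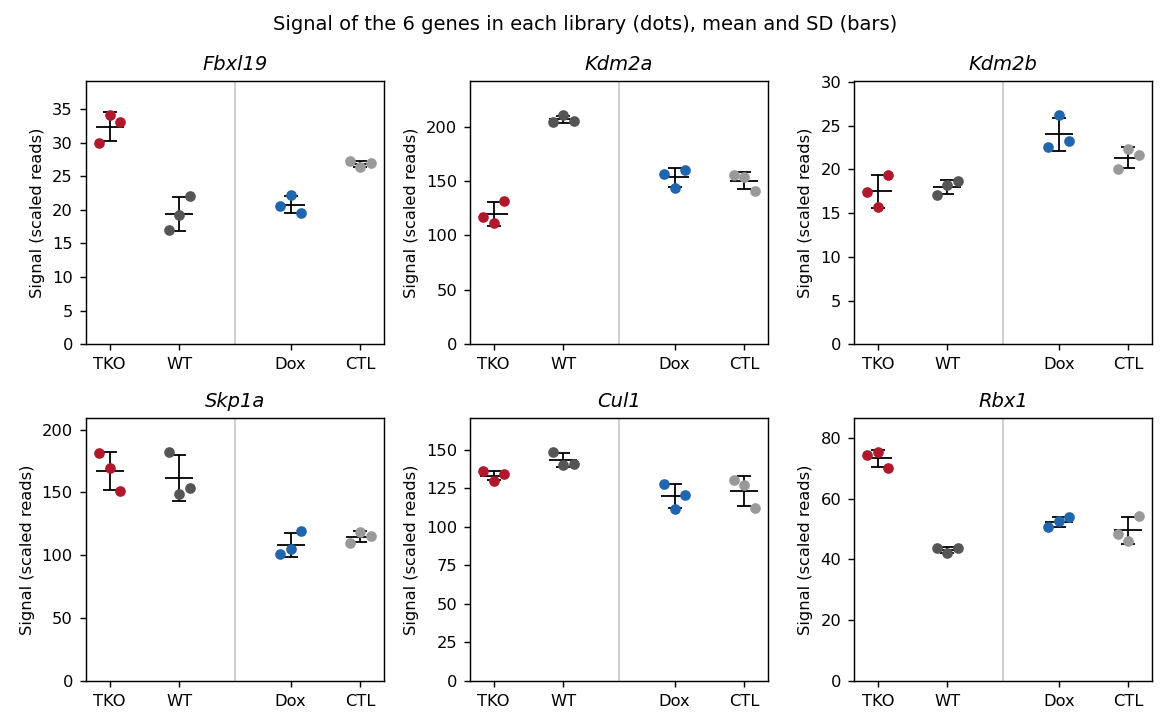
Signal (reads as scaled by the authors) of each of the 6 genes in each library, 3 libraries per group; dots are libraries, and horizontal lines with error bars are the group mean and SD. Fbxl19 is between 30.01 and 34.1 in TKO and between 16.9 and 22.1 in WT libraries, and Kdm2a lies the other way round.

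Among the relatives, Kdm2a (ENSMUSG00000054611.16), at chr19:4314419-4398285 on the minus strand, went down in TKO cells. Its signal was 117, 111 and 132 in the TKO libraries, against 204, 210.3 and 205 in the WT libraries. The TKO libraries were all well below the WT libraries, and the third was the highest of the 3. The mean was 119.9 ± 10.9 in TKO and 206.5 ± 3.25 in WT (SD, n = 3 each), a log2 change of -0.78 (SE 0.08, 95% interval -0.97 to -0.60, limma adjusted p 0.000613), or 0.58-fold. Only 3.78% of all genes had a lower change.

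In Dox against CTL, Kdm2a showed no comparable difference. Its signal was 157, 144 and 159.9 in the Dox libraries, against 156, 154 and 141 in the CTL libraries. The ranges overlapped, and the log2 difference of 0.03 had a 95% interval of -0.17 to 0.23 (limma adjusted p 0.999). That interval does not include a change of the size seen in TKO cells in either direction.

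Kdm2b (ENSMUSG00000029475.17), at chr5:122870665-122989823 on the minus strand, did not pass in either comparison. Its signal was 17.4, 15.7 and 19.4 in the TKO libraries, against 17.1, 18.2 and 18.7 in the WT libraries. The ranges overlapped, and the log2 difference was -0.04 (95% interval -0.27 to 0.18, limma adjusted p 0.722). With library-size scaling its sign turned, to 0.07. Under doxycycline the signal was 22.5, 26.2 and 23.3 in the Dox libraries, against 20.1, 22.4 and 21.6 in the CTL libraries. All Dox libraries were above all CTL libraries, but the difference of 0.16 (95% interval -0.07 to 0.39) did not pass (limma adjusted p 0.908).

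Some Kdm2b reads may belong elsewhere. Of its 50-base stretches 12.5% also occur in the annotated genes Gm12397 and Gm44574. Its end overlaps Rnf34 by 627 bases on the opposite strand, and the strand setting of the counting is not given in the sources used here. Rnf34 lay between 28.6 and 32.2 in TKO and between 31.5 and 35.4 in WT libraries.

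**Figure D2:**
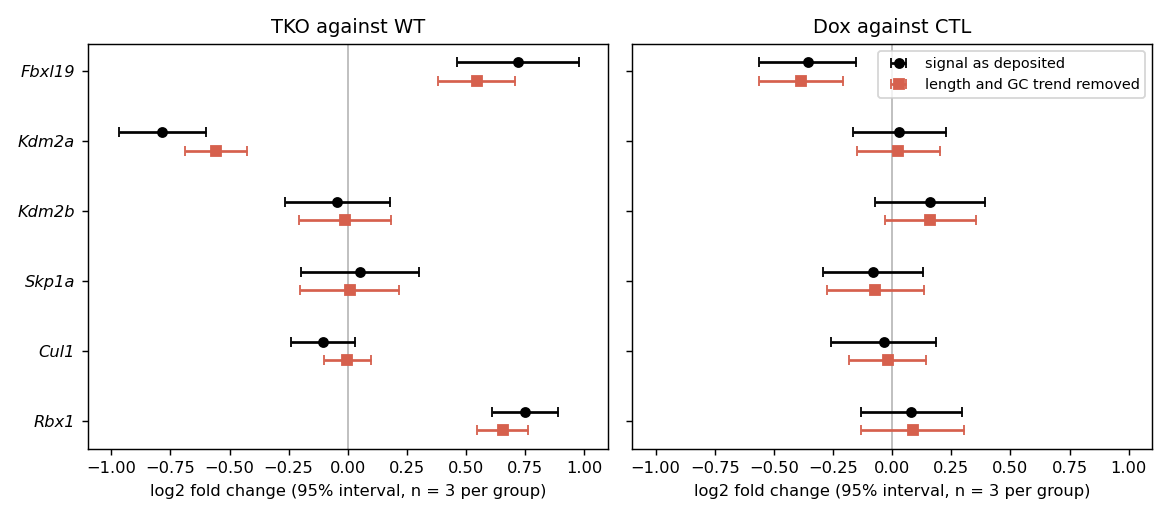
Log2 fold changes of the 6 genes with 95% intervals (n = 3 per group), TKO against WT on the left and Dox against CTL on the right. Black circles are from the deposited signal and red squares from values with the length and GC trend removed; Fbxl19, Rbx1 and Kdm2a keep intervals clear of 0 in TKO against WT.

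The balance among the 3 CXXC F-box genes was also measured within each library, as the share of each in their summed signal per transcript length. This share does not depend on the scaling of the library, but the length and GC trend described below was not removed from it. Fbxl19 made up 32.7, 37.0 and 32.3% of the sum in the TKO libraries, against 14.6, 15.8 and 18.1% in the WT libraries. The groups were far apart. The mean share was 34.0 ± 2.61% in TKO and 16.2 ± 1.73% in WT (SD, n = 3 each), a difference of 17.8 percentage points. The exact two-sided permutation p was 0.1, which is the smallest that 3 against 3 allows.

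Kdm2a was still the largest of the 3 in TKO cells, at 53.2 ± 1.84%, against 73.3 ± 1.93% in WT cells. Kdm2b made up 12.8% in TKO and 10.6% in WT cells. Under doxycycline the Fbxl19 share was 20.02, 21.8 and 18.8% in the Dox libraries, against 25.4, 24.5 and 26.5% in the CTL libraries. The Dox libraries were again all lower, with a mean difference of -5.22 points (exact two-sided permutation p 0.1). The Kdm2a share was 63.3% in Dox and 60.3% in CTL cells, with overlap between the groups (exact two-sided permutation p 0.3). Because the shares of a library add up to a whole, a lower Kdm2a signal by itself raises the other shares.

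**Figure D3:**
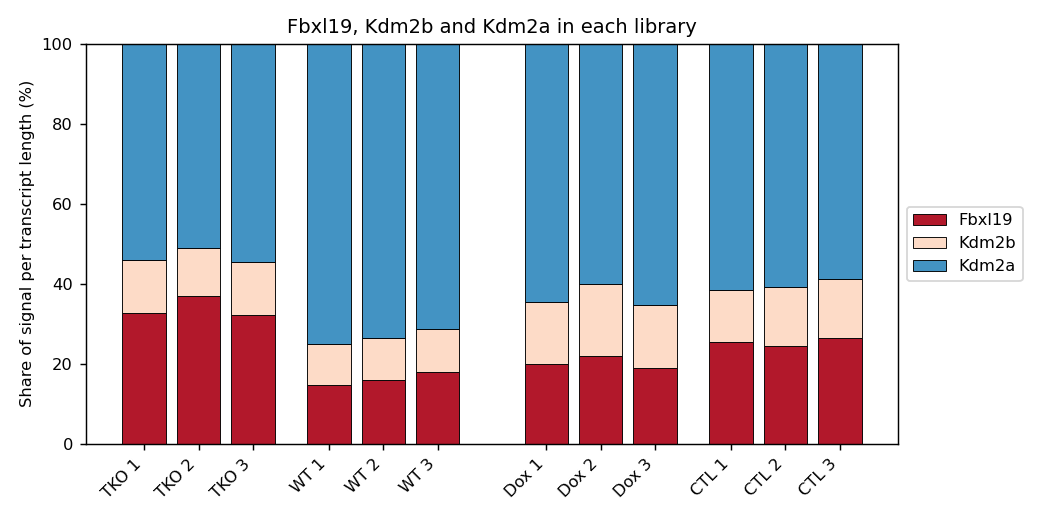
Share (%) of Fbxl19, Kdm2b and Kdm2a in their summed signal per transcript length, as 1 stacked bar per library for the TKO, WT, Dox and CTL groups. The Fbxl19 part is between 32.3 and 37.0% in TKO against 14.6 to 18.1% in WT libraries.

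Of the ligase core, only Rbx1 passed in TKO against WT. Rbx1 (ENSMUSG00000022400.8), at chr15:81466296-81476369 on the plus strand, had a signal of 74.5, 75.3 and 70.0 in the TKO libraries, against 43.7, 42.1 and 43.8 in the WT libraries. The spread within both groups was small beside the gap between them. The mean was 73.3 ± 2.83 in TKO and 43.2 ± 0.965 in WT (SD, n = 3 each), a log2 change of 0.75 (SE 0.06, 95% interval 0.61 to 0.89, limma adjusted p 0.000323), or 1.68-fold. Of the 50-base stretches of Rbx1, 9.78% are shared with the pseudogene Rbx1-ps, whose own signal was at most 0.126 in the TKO and WT libraries.

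Under doxycycline Rbx1 did not pass. Its signal was 50.6, 52.6 and 53.9 in the Dox libraries, against 48.4, 45.9 and 54.4 in the CTL libraries. The highest library was a CTL library, and the log2 difference was 0.08 (95% interval -0.13 to 0.29, limma adjusted p 0.982).

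The scaffold Cul1 (ENSMUSG00000029686.15), at chr6:47453398-47526139 on the plus strand, did not pass in TKO against WT. Its signal was 136, 129.9 and 134 in the TKO libraries, against 149, 140.2 and 141 in the WT libraries. The groups did not overlap, but by little, and the log2 difference was -0.10 (95% interval -0.24 to 0.03, limma adjusted p 0.179). With library-size scaling it was 0.02. In all, 4 of the 6 genes had groups that did not overlap, as did 58.8% of all genes.

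Under doxycycline Cul1 had a signal of 128, 112 and 121 in the Dox libraries, against 130.3, 127 and 112 in the CTL libraries. The ranges covered each other, with a log2 difference of -0.04 (95% interval -0.26 to 0.19, limma adjusted p 0.999). In this comparison 2 of the 6 genes, Fbxl19 and Kdm2b, had groups that did not overlap, as did 12.2% of all genes.

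The adaptor Skp1a (ENSMUSG00000036309.14), at chr11:52231995-52246858 on the plus strand, did not pass in either comparison. Its signal was 181, 169 and 151 in the TKO libraries, against 182, 149 and 154 in the WT libraries. Both groups spanned nearly the same range, and the log2 difference was 0.05 (95% interval -0.20 to 0.30, limma adjusted p 0.714). In the Dox libraries it was 101, 105 and 119, against 110.1, 119 and 115 in the CTL libraries. The log2 difference there was -0.08 (95% interval -0.29 to 0.13, limma adjusted p 0.981). Skp1a shares 2.52% of its 50-base stretches with Gm12988.

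Within libraries, the ratio of Rbx1 to Cul1 per transcript length was 1.03, 1.09 and 0.985 in the TKO libraries, against 0.555, 0.566 and 0.585 in the WT libraries (exact two-sided permutation p 0.1, the smallest possible). With 1 chosen transcript length per gene, the ring and scaffold messages were thus at similar per-length levels in TKO cells. Under doxycycline the ratio was 0.826 ± 0.0719 in Dox and 0.766 ± 0.131 in CTL (SD, n = 3 each), with overlap between the groups (exact two-sided permutation p 0.6). The ratio of Skp1a to Cul1 averaged 2.26 in TKO and 2.03 in WT libraries, also with overlap (exact two-sided permutation p 0.2). Without division by length, the Rbx1 to Cul1 ratio averaged 0.550 in TKO and 0.301 in WT libraries. The similar level in TKO cells therefore rests on the chosen lengths, 1675 bases for Rbx1 and 3161 for Cul1.

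Divided by transcript length in kilobases, the 6 genes spanned a wide range of levels. In TKO cells Skp1a was highest at 95.4 ± 8.64 signal per kilobase, followed by Rbx1 at 43.8 ± 1.69 and Cul1 at 42.2 ± 1.01, whose ranges overlapped (SD, n = 3). No other neighbours in the order overlapped, in any of the 4 groups. Below them were Kdm2a at 13.98 ± 1.27, Fbxl19 at 8.90 ± 0.586 and Kdm2b at 3.38 ± 0.358. In WT cells the order was Skp1a at 92.1 ± 10.3, Cul1 at 45.4 ± 1.46, Rbx1 at 25.8 ± 0.576, Kdm2a at 24.1 ± 0.379, Fbxl19 at 5.33 ± 0.705 and Kdm2b at 3.48 ± 0.160. Fbxl19 was thus second lowest in both, and the core genes stood above the F-box genes. Dox and CTL cells had the same order as WT cells, with Fbxl19 at 5.71 ± 0.358 in Dox and 7.38 ± 0.120 in CTL.

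In the TKO comparison the changes of all genes varied with the length and the GC content of their transcripts, and the 6 genes differ in both. The transcript of Fbxl19 has 3641 bases with 60.3% GC, and that of Kdm2a 8578 bases with 48.3% GC. After removal of that trend the changes in TKO against WT were 0.54 for Fbxl19 (limma adjusted p 0.0013), -0.56 for Kdm2a (limma adjusted p 0.000615) and 0.65 for Rbx1 (limma adjusted p 0.000238). All 3 were smaller than without the correction and all 3 passed.

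Cells other than progenitors were looked for through their markers. The summed signal of the 6 adipocyte markers listed, of 7, was 128, 132 and 29.3 in the TKO libraries and between 28.5 and 33.7 in the WT libraries. The 12 macrophage and leukocyte markers listed, of 14, summed to 62.4, 322 and 56.3 in the TKO libraries and to between 42.3 and 74.4 in the WT libraries. In the same order, the Fbxl19 signal of the TKO libraries was 30.01, 34.1 and 33.2, and its relation to either sum was not tested. None of the adipocyte or macrophage and leukocyte markers tested passed in limma. Of the 13 progenitor markers tested, 3 were lower in TKO cells, where 22.7% of all genes were, so the count is close to the background. They were Thy1 (-0.86), Pdgfrb (-0.47) and Itgb1 (-0.30). Pdgfrb lost its call without the first or the second WT library (limma adjusted p 0.063 and 0.0634), and Itgb1 without any 1 of 5 libraries (0.0561 to 0.137). Ly6a, the marker known as Sca-1, averaged 228 in TKO and 121 in WT cells and did not pass in limma (0.81), but it passed in DESeq2 (adjusted p 0.00681), with library-size scaling (limma adjusted p 0.0436) and in the fit blocked by replicate number (limma adjusted p 0.0288). Among markers of skeletal muscle, Schwann cells, epithelium, mesothelium and endothelium, Flt1 (-0.64) passed in limma and no other tested marker did. In the fit blocked by replicate number 2 of 4 skeletal muscle and 2 of 7 endothelial markers tested were lower, where 19.7% of all genes were. The 5 epithelial markers listed, of 6, summed to 0.482, 18.9 and 87.6 in the TKO libraries and to between 8.97 and 39.7 in the WT libraries. In the other comparison the macrophage and leukocyte sum was 158, 85.7 and 32.9 in the Dox libraries and 179.5, 85.1 and 43.2 in the CTL libraries, so it followed the replicate number. The epithelial sum did too, at 191.7, 46.9 and 17.2 in the Dox libraries and 178.3, 37.0 and 5.42 in the CTL libraries. In the paired fit the progenitor marker Ly6a was lower (-0.60), and the endothelial marker Kdr (0.51) and the Schwann cell marker Ngfr (0.41) were higher, in Dox than in CTL cells. Leaving out 1 library in the unpaired fit moved Ly6a between -0.99 and -0.15 and Ngfr between -0.04 and 0.77. The part of cell makeup in the changes of the 6 genes was not tested. In bulk samples fewer cells of a type and less RNA per cell cannot be told apart.

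The genes whose pattern over all 12 libraries was most like that of Fbxl19 were Unc119b, Cops7b, Fam118a, Rxrb and Rgl2, of 9933 genes compared. Likeness is Pearson's r of the log2 signal after the mean of each table was subtracted, and it was 0.96, 0.96, 0.96, 0.95 and 0.95. The libraries share depth and group differences, so r is given as a description. They were picked for likeness over these same libraries, so their changes are a description. Unc119b, a lipid-binding trafficking factor, averaged 45.5 in TKO and 25.2 in WT cells, and 32.9 in Dox and 41.9 in CTL cells. In TKO against WT their log2 changes were 0.83, 0.38, 0.48, 0.53 and 0.85, and in Dox against CTL their log2 differences were -0.36, -0.17, -0.17, -0.20 and -0.28. None has an 8mer in its 3′ UTR. Of the other members Rbx1 was most like Fbxl19 (r = 0.78, with 950 genes higher), and Kdm2a was most unlike it (r = -0.85).

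Other F-box genes show what is usual among the substrate receptors. Of 15 further leucine-rich-repeat F-box genes tested, 4 rose, 1 fell and 10 did not pass in TKO cells, with a median log2 difference of 0.20, where the median of all genes was -0.00 and 23.2% of all genes rose. Those that rose were Fbxl15 (1.36), Fbxl6 (1.08), Fbxl8 (0.56) and Fbxl17 (0.55). Fbxl6 averaged 24.1 in TKO and 10.9 in WT cells, while Fbxl15 was low in both, at 3.47 in TKO and 0.751 in WT cells. Fbxl16 fell (-0.59, limma adjusted p 0.0104). After the length and GC correction 8 rose and 1 fell, where 22.4% of all genes rose.

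Of 9 WD-repeat F-box genes, 3 rose, 1 fell and 5 did not pass, with a median of 0.11, where 23.2% of all genes rose and 22.7% fell. Fbxw9 (1.00), Fbxw4 (0.79) and Fbxw8 (0.54) rose. Fbxw7, which directs cyclin E and Myc to destruction, fell by 0.26 on the log2 scale (limma adjusted p 0.0142), but lost its call without any 1 of the 3 WT libraries (adjusted p 0.0514 to 0.0542). Of 30 F-box genes of other kinds, 12 rose, 4 fell and 14 did not pass, with a median of 0.19, against the same shares of all genes. Fbxo2 (0.88), which binds sugar chains on glycoproteins, and its relative Fbxo17 (0.58) rose. Fbxo11, a receptor for BCL6 in human cells, fell (-0.87), with 98.5 in TKO and 181 in WT cells, although its UTR has an 8mer. Fbxo38 (-0.27) and Fbxo33 (-0.26) fell too. Tbl1x (-0.50) is counted among the 4 that fell, but it is a co-repressor subunit rather than a typical F-box substrate receptor. Fbxo38 lost its call without any 1 WT library (limma adjusted p 0.0513 to 0.0801), and Fbxo33 without the second (0.0706) or the third (0.0506).

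Parts of other cullin ligases moved in both directions. Of 11 genes tested 6 rose and 3 fell, with a median of 0.21, where 23.2% of all genes rose and 22.7% fell. After the length and GC correction 7 rose and 2 fell. Elob, the elongin adaptor of Cul2 and Cul5 ligases, rose by 0.79, with 89.5 in TKO and 51.4 in WT cells. Ddb1, the adaptor of Cul4 ligases, rose by 0.52, and Rnf7, the RING relative of Rbx1, by 0.41. Cul3 fell by 0.53, with 137 in TKO and 198 in WT cells, and Cul4b (-0.46) and Cul5 (-0.35) also fell. Cul5 lost its call without the first (limma adjusted p 0.0847) or the second WT library (0.0851), with library-size scaling (0.0637) and after the length and GC correction, which left a difference of -0.05 (0.458).

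Cullins are switched on by Nedd8 and change their F-box subunit through exchange factors. Of 16 genes of these steps, with the conjugating enzymes of SCF among them, 2 rose, 6 fell and 8 did not pass, with a median of -0.23, where 23.2% of all genes rose and 22.7% fell. Ube2r2, a ubiquitin-conjugating enzyme that works with SCF, fell most (-1.12), with 123 in TKO and 269 in WT cells. The Nedd8 ligase Dcun1d1 fell (-0.84) and so did the Nedd8-conjugating enzyme Ube2m (-0.46), which serves Rbx1. Dcun1d5 (0.68) and Glmn, a binder of Rbx1 (0.29), rose. Glmn lost its call without any 1 WT library (limma adjusted p 0.0596 to 0.0829). Of the 9 genes of the COP9 signalosome, which takes Nedd8 off cullins, 4 rose and 3 fell, with a median of 0.10, against those same shares. Those that rose were the catalytic subunit Cops5 (0.70), Cops6 (0.55), Cops7b (0.38) and Cops8 (0.30). Cops4 (-0.34), Cops2 (-0.31) and Cops7a (-0.29) fell, of which Cops2 lost its call without any 1 of 4 libraries (limma adjusted p 0.0524 to 0.0938), with library-size scaling (0.0874) and after the length and GC correction, which left -0.08 (0.263). Cops7a lost its call with library-size scaling (0.0688).

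**Figure D4:**
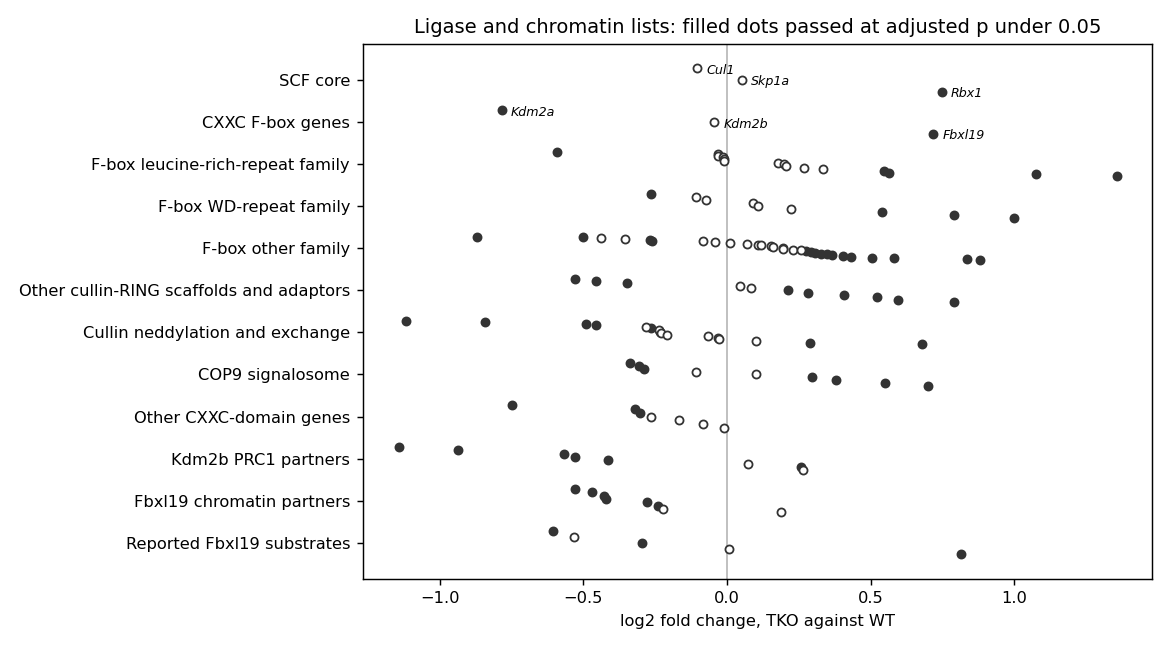
Log2 fold change in TKO against WT (x axis) of each tested gene of the F-box, cullin, CXXC and partner lists, 1 row per list and 1 dot per gene, filled where the gene passed in limma, with the 6 genes described here named. The list medians range from -0.47 for the Polycomb partners to 0.21 for other cullin-ligase parts.

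Among other CXXC genes none of 7 tested rose and 3 fell in TKO cells, with a median of -0.26, where 23.2% of all genes rose and 22.7% fell. They were the histone methyltransferases Kmt2a (-0.75) and Kmt2b (-0.32) and the 5-methylcytosine oxidase Tet3 (-0.30). Kmt2a lost its call without the second WT library (limma adjusted p 0.0533) and Kmt2b without the second (0.0803) or the third (0.0592). Tet3, which has a pair of 8mers like Fbxl19, lost its call without any 1 of 5 of the 6 libraries (limma adjusted p 0.0647 to 0.14).

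Of 8 genes of the Polycomb complex that Kdm2b joins, 1 rose, 5 fell and 2 did not pass, with a median of -0.47, where 23.2% of all genes rose and 22.7% fell. The largest falls were those of the adaptor Rybp (-1.14), with 23.0 in TKO and 51.9 in WT cells, the co-repressors Bcorl1 (-0.94) and Bcor (-0.53), and the ubiquitin ligase Rnf2 (-0.57), and Usp7 fell too (-0.41). Yaf2, the relative of Rybp, rose (0.26), a call it lost without the first (limma adjusted p 0.0739) or the third WT library (0.074). Kdm2b itself, as given above, did not pass. Of the 8 genes encoding reported chromatin partners of Fbxl19, none rose and 6 fell, with a median of -0.35, against the same shares of all genes. Of the CDK8 module, Ccnc fell by 0.43, Med12 by 0.42, Med13 by 0.53, Cdk8 by 0.47, Med13l by 0.28 and Cdk19 by 0.24. After the length and GC correction 3 of the 8 fell, where 23.4% of all genes fell, so this count depends on that step. Without the second WT library Cdk8 lost its call (limma adjusted p 0.053). Med13 and Cdk19 did so without any 1 WT library (0.0562 to 0.0923 and 0.057 to 0.0662), and Med13l without any 1 of 5 libraries (0.0671 to 0.142). Rnf20 (-0.22, limma adjusted p 0.109) and Rnf40 (0.19, limma adjusted p 0.0674) did not pass. Rnf40 did so without the first TKO library (limma adjusted p 0.0489) and with library-size scaling (0.0258).

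Proteins reported as Fbxl19 substrates were assigned at the protein level, which is not measured here, so their messages are given only as values. Of 5 tested, Rhoa (-0.61) and Rac1 (-0.30) fell, Rac3 rose (0.82), and 2 did not pass, where 23.2% of all genes rose and 22.7% fell. Rhoa averaged 336 in TKO and 513 in WT cells, whereas Rac3 was low, at 3.52 in TKO and 1.56 in WT cells. The interleukin 33 receptor Il1rl1 had a difference of -0.53 (limma adjusted p 0.0882), and Tgfbr1 of 0.01. Il1rl1 passed in DESeq2 (adjusted p 0.0382) and without the first TKO library (limma adjusted p 0.016). It also passed in the fit blocked by replicate number (limma adjusted p 0.0155), and there with the length and GC trend removed (0.0299).

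The length and GC correction moved several of the genes named above by more than 1.5 times without ending the call. The smaller values it left were 0.32 for Elob, 0.25 for Rnf7, 0.25 for Fbxl8, 0.45 for Fbxo2, 0.35 for Fbxo17, 0.50 for Fbxw4, 0.35 for Rac3 and 0.28 for Rxrb among genes that rose. Among genes that fell they were -0.27 for Cul3, -0.29 for Cul4b, -0.46 for Kmt2a, -0.26 for Usp7 and -0.16 for Ccnc. Ube2m (-0.87) and Cops7a (-0.52) fell by more after it. It ended the calls of Fbxw7 (limma adjusted p 0.0545), Tet3 (0.184), Med13 (0.133), Med13l (0.163), Cdk19 (0.418) and, among the markers, Itgb1 (0.0971). Library-size scaling ended those of Fbxw7 (0.109), Fbxo38 (0.0993), Fbxo33 (0.152), Kmt2b (0.103), Tet3 (0.202), Med13l (0.196), Cdk19 (0.187) and Itgb1 (0.124). It left -0.21 for Cops4 and -0.17 for Rac1, which still passed. Fbxl15 and Fbxo2 are low in WT cells, and edgeR gave them larger changes, 2.22 and 2.00.

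In Dox against CTL no gene of these lists passed in limma. Their medians were between -0.11 and 0.08, where the median of all genes was 0.01. In the fit paired by replicate number 1.54% of all genes fell and 0.562% rose, and 4 genes of these lists fell. They were Skp2, the F-box protein for p27 (-0.65, limma adjusted p 0.0207), Cdk8 (-0.54, 0.0207), Cops2 (-0.46, 0.0371) and Il1rl1 (-0.68, 0.0313). In the unpaired fit Il1rl1 was at -0.24 without the third CTL library and at -0.27 without the first Dox library. Skp2 averaged 12.2 in Dox and 19.7 in CTL cells, Cdk8 25.5 in Dox and 37.6 in CTL cells, and both have an 8mer. Skp2 had a difference of -0.03 in TKO against WT (limma adjusted p 0.855), and Cdk8 fell there too.

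How Fbxl19 compares with other genes that hold the same matches was described across all tested genes with an annotated 3′ UTR. Of 11834 such genes in TKO against WT, 602 (5.09%) had at least 1 8mer. Of these 101 (16.8%) rose and 159 (26.4%) fell in TKO cells, with a median of -0.08, against 23.6% and 22.7% of all 11834. At least 2 8mers were found in 34 genes (0.287%), of which 3 (8.82%) rose and 9 (26.5%) fell, with a median of -0.12, so the share that fell was close to the background. Without the length and GC correction, Fbxl19 had the highest change of the 34. The other 2 that rose, named after their values were seen, were Snn (0.65, limma adjusted p 0.00259) and Rap2c (0.32, limma adjusted p 0.0333). Rap2c lost its call without any 1 of 4 libraries (limma adjusted p 0.0593 to 0.109) and with median centring (0.0736). After the length and GC correction Rap2c was at 0.57 and Fbxl19 at 0.54, so the rank of Fbxl19 depends on that step. Snn averaged 61.2 in TKO and 38.3 in WT cells.

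Under doxycycline 600 tested genes had at least 1 8mer. In the paired fit 63 of them (10.5%) fell and 2 rose, against 1.61% and 0.58% of all genes with a UTR. Of 33 genes with at least 2 8mers, 6 fell and none rose, with a median of -0.20. Fbxl19 was the 11th lowest of the 33, with a difference of -0.36. Snn was at -0.65 (adjusted p 0.0123 in the paired limma fit), with 32.8 in Dox and 52.4 in CTL cells, and Rap2c was at -0.41 (adjusted p 0.0491).

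Of the 33 genes measured in both comparisons, 12 (36.4%) were higher in TKO and lower in Dox cells by sign alone, as Fbxl19 was, against 23.3% of 12373 genes. Genes with at least 2 8mers have long UTRs, with a median of 3542 bases where all genes have 1200, and the part of UTR length in these counts was not tested. The Fbxl19 UTR, at 1546 bases, is short for this set.

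**Figure D5:**
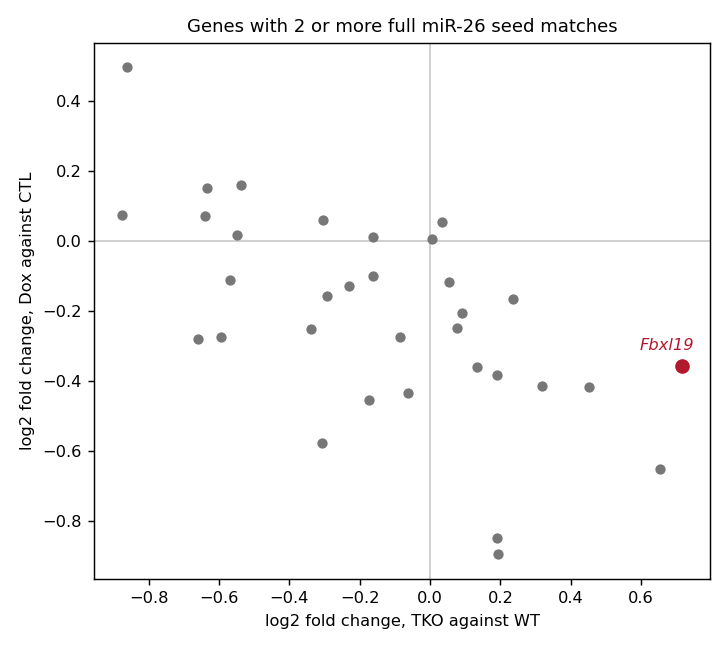
Log2 fold change in TKO against WT (x axis) and Dox against CTL (y axis) of the 33 genes with at least 2 8mer matches to the miR-26 seed that were tested in both; each point is a gene and Fbxl19 is in red. As plotted, without the length and GC correction, Fbxl19 is farthest to the right, at 0.72, and at -0.36 on the y axis.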

How the data were processed

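Per the submitters' processing notes, reads were handled with TopHat2 2.0.12, featureCounts 1.4.6 and edgeR 3.8.6 on GRCm38 (mm10), with StringTie 1.2.2 also named. Their order, the strand setting and the edgeR design are not given in the sources used here. Per the labels' protocols, libraries were made with a stranded messenger RNA kit and read as 75-base single reads. The deposited signal holds read numbers adjusted for library size and for 1 further factor of each library. The deposited log2 fold changes, score and p-value columns are the authors' own results, and a value from them is given with its source. Dividing the signal by its smallest step gave whole reads, within 0.1 reads, for 99.9 to 100.0% of values, and these recovered reads went into edgeR and DESeq2 as alternatives. The tables list only genes with values above 0 in all 6 libraries. The Dox 2 and Dox 3 columns carry the same sequencing suffix, so which is which rests on the replicate number.

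Each comparison was fitted alone with limma 3.58.1 (R 4.3.3), with a trend on the mean, on log2 of signal plus 1. Genes were tested where 3 or more of the 6 libraries reached a signal of 1. P-values were adjusted by Benjamini-Hochberg over all of them. Alternatives used edgeR 4.0.16, DESeq2 1.42.0 and mgcv 1.9.3 (length and GC trend), and the fits were tested on simulated data. Ratios and shares were compared with exact permutation tests in scipy 1.17.1. Transcripts and 3′ UTRs came from GENCODE vM21, in which 99.8 and 99.9% of gene identifiers were found. Same-numbered Dox and CTL libraries deviated from their group means together (r 0.86, 0.58 and 0.74), so the paired fit is given where it changes a call. The pairing is inferred from these values, not stated in the labels.

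The 6 genes and the 20 lists (202 genes) were chosen with earlier results of these data known. Genes named are the 6, up to 4 genes with the smallest p of each list among those that passed, and the 5 genes most like Fbxl19. Added after their values were seen were the other genes behind list counts of 5 or fewer, the remaining chromatin partners and reported substrates, the genes that passed in the paired Dox fit, and Snn and Rap2c.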

Additional observations from a re-analysis of the deposited data

How the results depend on the processing

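With library-size scaling, median centring, another pseudocount, no filter, edgeR, DESeq2, the replicate block and the length and GC trend removed, Fbxl19, Kdm2a and Rbx1 passed in TKO against WT, and Kdm2b, Skp1a and Cul1 did not. Leaving out each library gave 0.63 to 0.81 for Fbxl19 (limma adjusted p 0.00417 to 0.0157), -0.85 to -0.73 for Kdm2a and 0.73 to 0.78 for Rbx1. It gave 3887 to 5632 genes called, against 5796 with all libraries. TKO and WT numbers do not pair (r 0.45, -0.13 and -0.29); with the replicate block 5101 genes were called and the adjusted p was 0.00662 for Fbxl19, 0.00543 for Kdm2a and 0.00484 for Rbx1. For Dox against CTL, the 0 genes called became 99 with DESeq2, 265 with the replicate block and 903 with the replicate block and the trend removed. The block without pair 1, 2 or 3, an alternative chosen after seeing the data, called 129, 1405 or 584. Fbxl19 passed in the block with the trend removed (-0.39) and in the block without the second pair (-0.42). The block changed no other call of the 6 genes, and the cause of these differences was not tested. Leaving out each library moved the Fbxl19 share difference between 16.3 and 18.7 points (TKO) and between -6.02 and -4.53 points (Dox). Without division by length it was 11.2 and -3.05 points. Depth was lower in the Dox and CTL libraries, where Fbxl19 had 410 to 672 reads.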
